A study of Mus musculus with 10 samples.

Results

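The 48 genes described here encode proteins of DNA replication and of mitosis, and their RNA marks dividing cells. They were chosen by name, as 25 genes of mitosis and 23 genes of S phase. Earlier results of these data were known when the choice was made. TPM, an abundance that is relative to the whole library and corrected for transcript length, was summed over all transcripts of each gene in each of 10 libraries. The 48 genes are among 22594 genes in the table, and all 48 were among the 13188 genes tested, those that reached 1 TPM in 2 or more libraries. The lowest value of any of the 48 in any library was 1.04 TPM, for Kif11 in a lung library at 12 h, so each was measured throughout.

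The libraries came from mouse cells labelled as post-mortem fibroblasts, and RNA was measured by sequencing. The groups were lung fibroblasts at 12 h (2 libraries), lung fibroblasts at 0 h (2 libraries), ear fibroblasts at 12 h (3 libraries) and ear fibroblasts at 0 h (3 libraries). All groups share the post-mortem label, and the labels name no strain, genotype, sex or age, nor the event from which the hours were counted. The labels also do not say whether the cells were grown in culture or whether replicates came from separate animals, so every p measures the spread between these libraries, which may be technical.

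A cell copies its DNA in S phase and divides its chromosomes in mitosis. Licensing proteins load the MCM helicase on origins before S phase, E2F transcription factors raise the genes of replication and nucleotide supply around its start, and the MuvB complex with B-MYB and FOXM1 raises the mitotic genes later, through promoter elements called CHR. RNA of these genes is low in resting cells such as most fibroblasts of a healthy tissue and rises when fibroblasts are put into culture. In RNA from bulk samples, fewer dividing cells and less RNA of these genes per cell cannot be told apart.

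The libraries were alike in breadth, with 12024 to 12337 genes at 1 TPM or more, and TPM keeps no record of read depth. The 12 fibroblast markers summed to 4053 and 4814 TPM in 12 h lung, 3351 and 6617 TPM in 0 h lung, 7247 to 13930 TPM in 12 h ear and 5611 to 9482 TPM in 0 h ear, with 11 of 12 at 1 TPM or more in every library of each group. The 10 macrophage markers summed to 7426 and 17070 TPM in 12 h lung and to 5376 and 7127 TPM in 0 h lung, with 10 of 10 at 1 TPM or more in every lung library. In ear they summed to 28.8 to 56.0 TPM at 12 h and 25.6 to 48.4 TPM at 0 h. The 8 epithelial markers summed to 11.5 and 31.1 TPM in 12 h lung, 60.9 and 20.2 TPM in 0 h lung, 3.59 to 6.63 TPM in 12 h ear and 2.45 to 5.05 TPM in 0 h ear. No fibroblast or macrophage marker was at 0 in every library of a group. The lung libraries thus carry RNA that the fibroblast label does not cover, and its part in the results below was not tested.

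Library 1 of lung at 12 h and library 1 of ear at 12 h stood apart from the other 8 libraries in these genes. For 46 of the 48 genes they were the 2 lowest of the 10 libraries, which was so for 5.50% of all genes tested (725 genes). The exceptions were Mybl2 and E2f1. All 48 genes together held 0.0514% of the TPM in lung 12 h library 1 and 0.0580% in ear 12 h library 1, against 0.129% to 0.240% in the other libraries. The number of genes at 1 TPM or more was 12103 in lung 12 h library 1 and 12337 in ear 12 h library 1, and mitochondrial genes held 1.30% of the TPM in lung 12 h library 1 and 0.641% in ear 12 h library 1, the highest and the lowest shares of the 10 libraries. The fibroblast marker sum was 4053 TPM in lung 12 h library 1, below the other lung 12 h library, and 13930 TPM in ear 12 h library 1, the highest of all. Medians and ranges of the fold changes that rest on these libraries are given below with and without them.

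**Figure D1:**
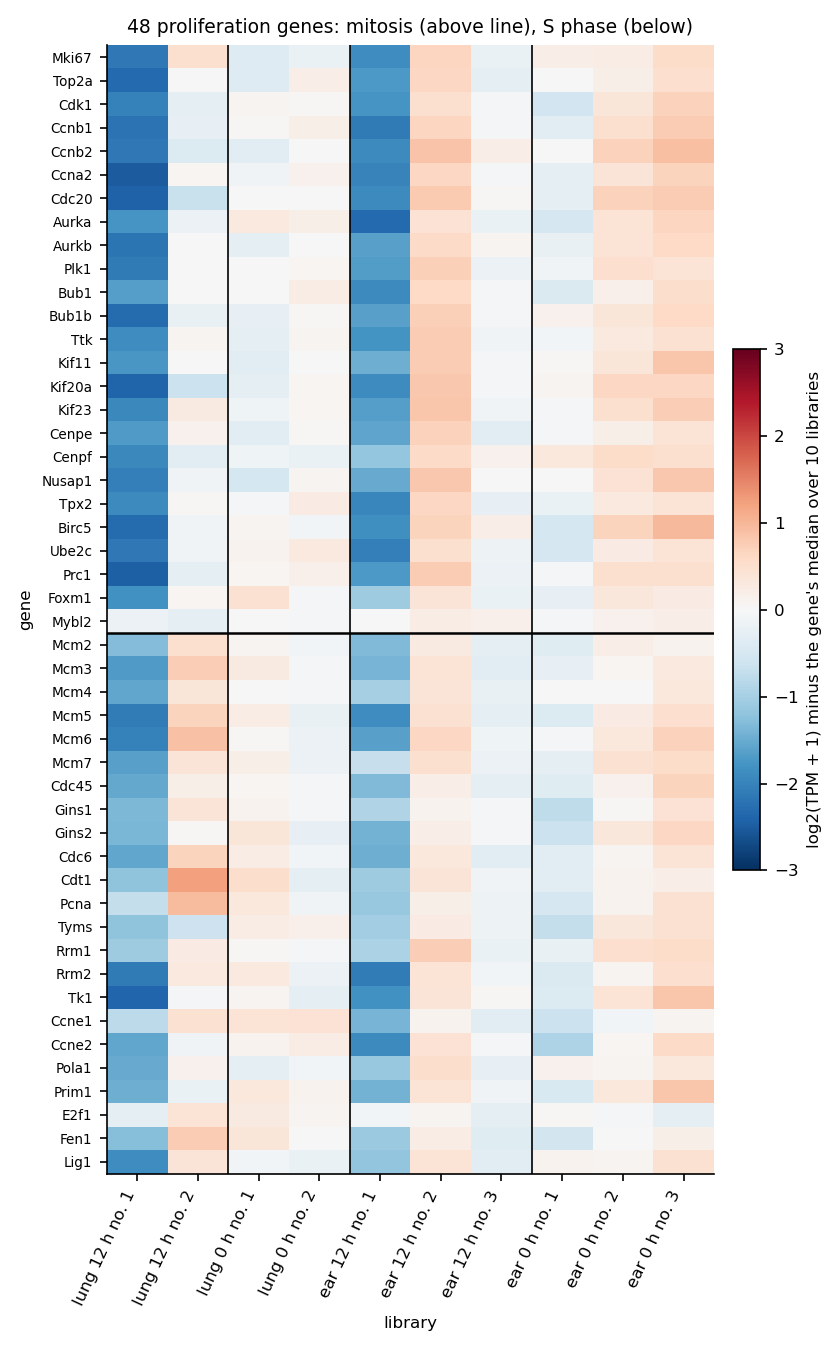
Level of each of the 48 genes (down the page, mitosis above the line and S phase below it) in each of the 10 libraries, as log2(TPM + 1) minus the gene's median over the libraries. The columns of lung 12 h library 1 and ear 12 h library 1 are the 2 lowest for 46 of 48 genes, and the lines of Mybl2 and E2f1 are nearly flat, at 1.44 and 1.70 for highest over lowest library.

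The mitosis genes varied most among the libraries. Leaving out Mybl2, the ratio of the highest to the lowest library had a median of 9.21 over 24 genes, and it lay between 6.48 for Foxm1 and 11.5 for Bub1b. For the S phase genes other than E2f1 the median ratio was 5.78 over 22 genes, between 3.31 for Tyms and 10.1 for Tk1. The spread within groups, as the residual SD of log2(TPM + 1), had a median of 0.93 for the 48 genes and 0.28 for all genes tested. Of the 46 genes other than Mybl2 and E2f1, the steadiest was Tyms, with an SD of 0.56, which was above that of 86.2% of genes, and the most variable was Ccna2, with 1.11, above that of 98.8% of genes.

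The mitotic engine is the kinase CDK1 with its cyclins. Cdk1 had 24.6 and 83.9 TPM in 12 h lung, 110 and 107 TPM in 0 h lung, 29.4, 145 and 101 TPM in 12 h ear, and 69.8, 134 and 169 TPM in 0 h ear. Ccnb1, its cyclin B1 partner, had 11.3 and 47.7 TPM in 12 h lung, 58.2 and 64.1 TPM in 0 h lung, 12.2, 88.8 and 54.8 TPM in 12 h ear, and 44.4, 79.8 and 96.7 TPM in 0 h ear. In both genes the lung groups did not overlap and the ear groups did, with ear 12 h library 1 the lowest and ear 0 h library 3 the highest ear library. Ccnb2 and Ccna2, further cyclins of CDK1, ranged over 9.27 and 9.77 between highest and lowest library. Their lowest library was lung 12 h library 1 and their highest ear 0 h library 3, as for Cdk1 and Ccnb1.

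Proteins that act on chromosomes and on the spindle followed the same libraries. Top2a, the topoisomerase that untangles sister chromatids, had 6.68 and 38.5 TPM in 12 h lung, 28.9 and 43.7 TPM in 0 h lung, 10.8, 58.6 and 31.3 TPM in 12 h ear, and 37.4, 42.9 and 54.1 TPM in 0 h ear. Mki67, the source of the Ki-67 antigen that coats mitotic chromosomes, had 2.42 and 20.0 TPM in 12 h lung, 10.6 and 12.1 TPM in 0 h lung, 3.13, 22.5 and 12.1 TPM in 12 h ear, and 16.4, 16.5 and 21.1 TPM in 0 h ear. Aurkb, the kinase that corrects faulty chromosome attachments, had 4.19 and 22.8 TPM in 12 h lung, 18.8 and 22.7 TPM in 0 h lung, 6.72, 34.4 and 24 TPM in 12 h ear, and 19.2, 30.5 and 35.1 TPM in 0 h ear. In these 3 genes library 1 at 12 h was the lowest of its tissue, and lung 12 h library 2 and ear 12 h library 2 reached or passed values of their 0 h groups, so that the times overlapped in both tissues for Top2a, Mki67 and Aurkb.

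The other mitosis genes were alike. Aurka and Plk1 (spindle and centrosome kinases), Bub1, Bub1b and Ttk (checkpoint kinases that hold anaphase back), Kif11, Kif20a, Kif23 and Cenpe (motor proteins), Cenpf (a kinetochore protein), Nusap1, Tpx2 and Prc1 (microtubule binders), and Birc5 (the partner of AURKB) ranged over 6.67 for Tpx2 to 11.5 for Bub1b between highest and lowest library. Cdc20 and Ube2c ranged over 10.1 and 6.57. CDC20 activates the anaphase-promoting complex that destroys cyclin B, and UBE2C is a ubiquitin-conjugating enzyme that works with that complex. Of the 25 mitosis genes, Aurka, Bub1 and Tpx2 had their lowest value in ear 12 h library 1 and Mybl2 in lung 12 h library 2. The other 21 had it in lung 12 h library 1.

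Foxm1, the forkhead factor of the late cell cycle, was the mitosis gene besides Mybl2 with the narrowest range. It had 2.39 and 11.5 TPM in 12 h lung, 15.5 and 10.6 TPM in 0 h lung, 4.71, 14.7 and 9.52 TPM in 12 h ear, and 9.20, 14.2 and 13.2 TPM in 0 h ear. Lung at 12 h overlapped lung at 0 h only through library 2, and ear at 12 h held both the lowest and the highest ear value.

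Promoter sequences of the mitosis genes are shown because they carry the elements by which this class is known. Whether these elements bear on the levels in any library was not tested. RefSeq windows ran from 250 bases before to 50 bases after a gene's start (build GRCm38.p6). They were used where they lay within 100 bases of the start of the gene's most abundant transcript. Where transcripts tied in TPM, the start with the lowest coordinate was taken on either strand, which is an arbitrary choice. Transcripts whose start the annotation marks as not found were left out of that choice. This gave a window for 35 of the 48 genes (20 of mitosis and 15 of S phase) and for 7985 of all genes tested. Capitals mark the CHR element, searched as TTTGAA or TTCGAA, and the CCAAT box, searched as CCAAT, each on both strands. Cdc20 is at chr4:118437294-118437593 on the minus strand and Ccnb2 at chr9:70421505-70421804 on the minus strand.
Cdc20: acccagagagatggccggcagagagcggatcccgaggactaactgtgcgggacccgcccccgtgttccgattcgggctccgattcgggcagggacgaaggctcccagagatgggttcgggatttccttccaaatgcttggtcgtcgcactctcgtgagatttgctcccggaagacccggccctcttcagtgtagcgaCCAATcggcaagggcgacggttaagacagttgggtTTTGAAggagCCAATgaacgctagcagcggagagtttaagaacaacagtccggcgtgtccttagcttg
Ccnb2: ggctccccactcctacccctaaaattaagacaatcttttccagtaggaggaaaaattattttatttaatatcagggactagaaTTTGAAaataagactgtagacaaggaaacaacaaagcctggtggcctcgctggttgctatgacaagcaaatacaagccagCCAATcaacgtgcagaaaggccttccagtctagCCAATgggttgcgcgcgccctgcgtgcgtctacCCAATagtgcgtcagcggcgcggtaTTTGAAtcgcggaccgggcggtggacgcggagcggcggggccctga
In the Cdc20 window the CHR lies at -18 to -13 from the start, between CCAAT boxes at -53 to -49 and -8 to -4. In the Ccnb2 window CHR matches lie at -167 to -162 and at 5 to 10, with CCAAT boxes between them at -87 to -83, -54 to -50 and -21 to -17.

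A CHR match was present in 75.0% of the mitosis windows (15 of 20), in 13.3% of the S phase windows (2 of 15) and in 13.4% of all 7985 windows. The CCAAT box was present in 85.0% of mitosis windows (17 of 20), 60.0% of S phase windows (9 of 15) and 39.8% of all windows. Every mitosis window with a CHR also held a CCAAT box (75.0%), while 5.71% of all windows held both. A match is a description of letters in the window and not a binding site. The window of Mybl2 held no match of any motif searched. It lies by the start of the full-length transcript, which held 4.31% of the TPM of Mybl2.

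The S phase genes begin with the licensing factors and the helicase. Mcm2 had 6.93 and 26.2 TPM in 12 h lung, 19.5 and 17.5 TPM in 0 h lung, 6.82, 22.5 and 15.0 TPM in 12 h ear, and 14.2, 21.4 and 20.1 TPM in 0 h ear. Mcm5, a further helicase subunit, had 5.73 and 44.8 TPM in 12 h lung, 32.5 and 23.8 TPM in 0 h lung, 6.89, 38.7 and 22.5 TPM in 12 h ear, and 20.6, 33.4 and 40.0 TPM in 0 h ear. In both genes lung 12 h library 2 was the highest of all 10 libraries while library 1 of the same group was among the 2 lowest. The range between highest and lowest library over Mcm2 to Mcm7 went from 3.84 for Mcm2 to 8.74 for Mcm6. Cdc6 and Cdt1, which load the helicase, ranged over 7.53 and 6.73, and Cdc45, Gins1 and Gins2, which make it active, over 5.80, 4.35 and 4.30.

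Windows of Mcm5 (chr8:75109259-75109558, plus strand) and Mcm6 (chr1:128359656-128359955, minus strand) are shown because they hold E2F matches, the element by which the S phase class is known, beside CCAAT boxes, and no CHR. Capitals mark E2F matches, searched as TTCCCGC or TTCGCGC or TTGCCGC or TTGGCGC on both strands, and CCAAT boxes, also on both strands. E2F matches overlap one another in both windows.
Mcm5: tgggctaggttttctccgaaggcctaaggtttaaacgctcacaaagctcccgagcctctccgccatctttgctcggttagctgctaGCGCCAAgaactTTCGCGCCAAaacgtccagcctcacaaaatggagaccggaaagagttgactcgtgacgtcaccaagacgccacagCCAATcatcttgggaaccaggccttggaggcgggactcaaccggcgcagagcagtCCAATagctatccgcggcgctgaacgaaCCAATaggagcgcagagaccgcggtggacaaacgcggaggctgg
Mcm6: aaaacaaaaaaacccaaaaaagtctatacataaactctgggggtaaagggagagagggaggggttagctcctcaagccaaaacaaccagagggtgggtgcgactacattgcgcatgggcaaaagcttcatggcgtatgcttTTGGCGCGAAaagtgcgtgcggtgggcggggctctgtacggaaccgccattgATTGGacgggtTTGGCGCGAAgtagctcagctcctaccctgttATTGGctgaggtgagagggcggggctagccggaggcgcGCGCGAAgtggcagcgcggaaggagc
An E2F match was present in 66.7% of S phase windows (10 of 15), in 15.0% of mitosis windows (3 of 20) and in 17.3% of all 7985 windows. The shares are descriptions of 2 sets chosen for their known roles.

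**Figure D2:**
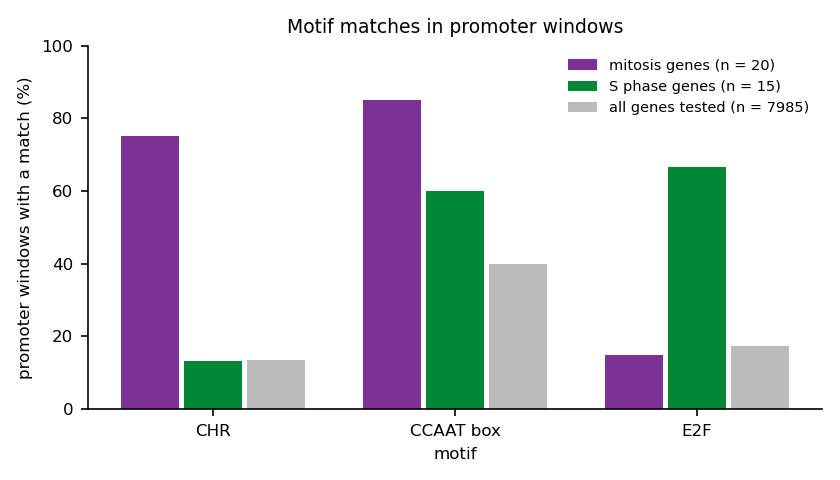
Share of promoter windows (vertical axis, percent) that hold each motif on either strand (horizontal axis), for the mitosis genes (n = 20), the S phase genes (n = 15) and all genes tested with a window (n = 7985). CHR matches were in 75.0% of mitosis windows and 13.3% of S phase windows, and E2F matches in 15.0% and 66.7%.

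The genes of nucleotide supply and of the replication fork covered a wide span of levels, with means between 166 TPM for Pcna and 5.04 TPM for Pola1 over the 10 libraries. Pcna, the sliding clamp of DNA polymerases, had 97.0 and 309 TPM in 12 h lung, 199 and 150 TPM in 0 h lung, 72.2, 183 and 144 TPM in 12 h ear, and 113, 172 and 220 TPM in 0 h ear. Rrm2, the subunit of ribonucleotide reductase made in S phase, had 16.1 and 90.7 TPM in 12 h lung, 89.8 and 64.8 TPM in 0 h lung, 16.4, 99.0 and 69.9 TPM in 12 h ear, and 54.2, 77.7 and 106 TPM in 0 h ear. For Pcna and Rrm2, library 1 was lowest and library 2 highest within each 12 h group, and the 12 h and 0 h groups overlapped in both tissues.

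Among the other genes of this class, Tk1 (thymidine kinase), Rrm1 (the large subunit of ribonucleotide reductase), Pola1 and Prim1 (polymerase alpha and primase), and Fen1 and Lig1 (which finish the lagging strand) ranged over 3.60 for Rrm1 to 10.1 for Tk1. Tyms, thymidylate synthase, had 19.5 and 30.0 TPM in 12 h lung, against 54.8 and 51.9 TPM in 0 h lung, and 22.2, 55.1 and 42.0 TPM in 12 h ear, against 28.1, 59.5 and 64.7 TPM in 0 h ear. Both lung 12 h libraries lay below both lung 0 h libraries for Tyms, as they did for Prim1, while the ear groups overlapped.

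Cyclin E opens S phase with CDK2. Ccne1 had 11.7 and 28.9 TPM in 12 h lung, 27.8 and 28.5 TPM in 0 h lung, 7.34, 22.5 and 16.5 TPM in 12 h ear, and 12.9, 19.7 and 22.0 TPM in 0 h ear. The lung 0 h libraries were both above every ear 0 h library, and lung 12 h library 2 was the highest of all. Ccne2, its paralog, ranged over 7.02 between highest and lowest library.

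Mybl2 and E2f1, the factors that act on the promoters described above, did not follow the set when their transcripts were summed. Mybl2, which encodes B-MYB, had 82.0 and 75.1 TPM in 12 h lung, 91.9 and 90.2 TPM in 0 h lung, 93.9, 108 and 103 TPM in 12 h ear, and 90.2, 101 and 107 TPM in 0 h ear. E2f1 had 8.14 and 13.8 TPM in 12 h lung, 12.4 and 10.8 TPM in 0 h lung, 9.53, 10.8 and 8.20 TPM in 12 h ear, and 10.4, 9.88 and 8.17 TPM in 0 h ear. In neither gene were lung 12 h library 1 and ear 12 h library 1 the 2 lowest, and the highest library was 1.44 times the lowest for Mybl2 and 1.70 times for E2f1. Their residual SDs were 0.10, above that of 2.37% of genes, and 0.25, above that of 42.8% of genes.

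One transcript held most of each sum. An incomplete Mybl2 transcript of 789 bases, whose start and end the annotation marks as not found, held 95.7% of the TPM of Mybl2 and lay between 69.4 and 102 TPM in the 10 libraries. The full-length Mybl2 transcript of 3651 bases had 0.82 and 5.70 TPM in 12 h lung, 6.52 and 4.68 TPM in 0 h lung, 1.19, 6.04 and 3.35 TPM in 12 h ear, and 2.71, 4.55 and 5.05 TPM in 0 h ear. Its highest library was 7.99 times its lowest, and library 1 at 12 h was the lowest of each tissue, as in the other mitosis genes. Its residual SD was 0.77, above that of 94.4% of genes.

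E2f1 was alike on a smaller scale. The E2f1 transcript with the shorter coding sequence (1155 bases) held 90.8% of the gene's TPM and lay between 6.74 and 11.8 TPM. The one with the longer coding sequence (1290 bases) had 0.11 and 2.05 TPM in 12 h lung, 1.27 and 1.37 TPM in 0 h lung, 0.13, 1.06 and 0.92 TPM in 12 h ear, and 0.10, 1.01 and 1.43 TPM in 0 h ear. Here lung 12 h library 1, ear 12 h library 1 and ear 0 h library 1 were all near 0.1 TPM and the other 7 libraries were at 0.92 TPM or more. The residual SD of this transcript was 0.61, above that of 88.5% of genes, and at this level the added 1 TPM of the log scale narrows differences.

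**Figure D3:**
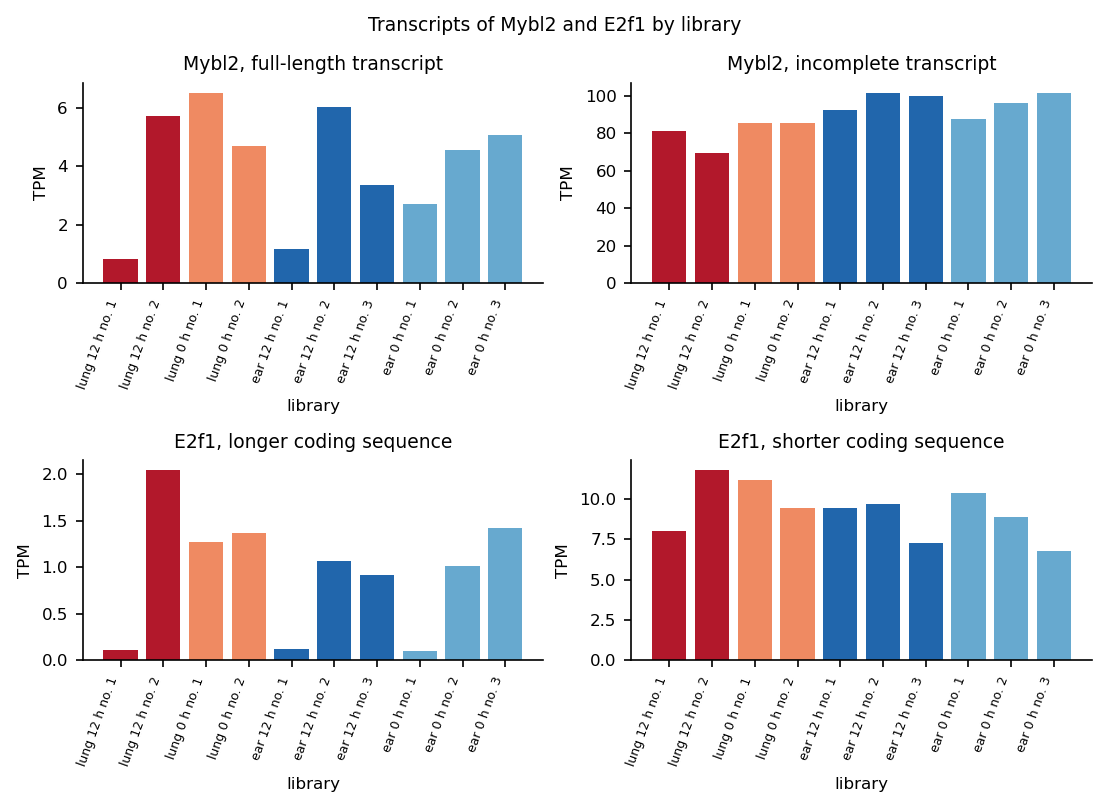
TPM (vertical axes, starting at 0) of the full-length Mybl2 transcript and the E2f1 transcript of longer coding sequence (left) and of the incomplete Mybl2 transcript and the E2f1 transcript of shorter coding sequence (right) in each of the 10 libraries, coloured by group. The right-hand transcripts lie at 69.4 to 102 TPM and 6.74 to 11.8 TPM, while full-length Mybl2 is at 0.82 TPM in lung 12 h library 1 and 1.19 TPM in ear 12 h library 1.

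The segments that set the abundant transcripts apart are shown because the sums turn on them. The exon of the incomplete Mybl2 transcript that the full-length one lacks is at chr2:163075919-163076035 on the plus strand, and the coding segment that belongs to the E2f1 transcript of shorter coding sequence and not to the other is at chr2:154569067-154569177 on the minus strand (GENCODE vM21 transcripts, build GRCm38). Capitals mark bases within 31-base words that also occur in annotated transcripts of other genes.
Mybl2: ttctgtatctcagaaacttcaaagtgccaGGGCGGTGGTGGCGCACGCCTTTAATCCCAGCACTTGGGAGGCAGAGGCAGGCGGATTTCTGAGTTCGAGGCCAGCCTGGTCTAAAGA
E2f1: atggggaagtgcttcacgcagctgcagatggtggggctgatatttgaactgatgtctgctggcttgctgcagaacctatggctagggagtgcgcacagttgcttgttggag
Of the 87 words of 31 bases in the Mybl2 exon, 58 occur in transcripts of 1520 other genes, and the capitals read as the B1 repeat that is scattered through the mouse genome. Of the 81 words in the E2f1 segment, 0 occur in transcripts of another gene. Whether reads of other genes entered the value of the incomplete Mybl2 transcript was not tested. In the deposited values, 2728 of 2758 groups of transcripts that share all coding exons but differ in other exons had equal TPM, within 0.1% of the highest, as did Cdk1 (2 transcripts) and Fen1 (4 transcripts), so the values behave as if computed on coding sequences.

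**Figure D4:**
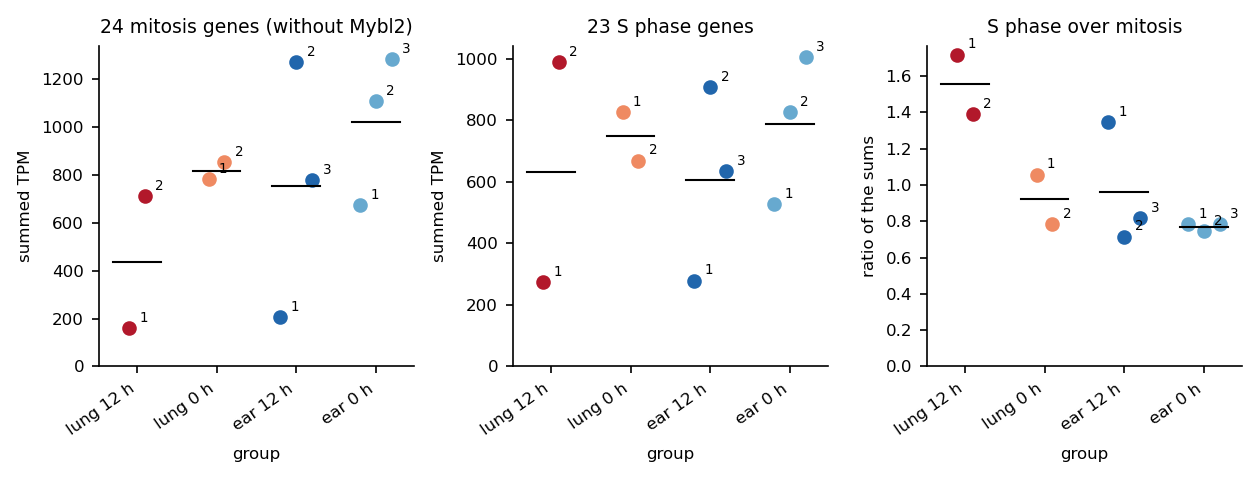
Summed TPM of 24 mitosis genes (without Mybl2) and of 23 S phase genes, and the ratio of the S phase sum to the mitosis sum (vertical axes), by group (horizontal axes). Points are libraries with their replicate number and bars are group means; library 1 is lowest in both 12 h groups, and the ratio is highest in lung at 12 h, at 1.72 and 1.39.

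The sums show how the replicates compare. The 24 mitosis genes without Mybl2 summed to 159 and 711 TPM in 12 h lung, 783 and 854 TPM in 0 h lung, 207, 1272 and 778 TPM in 12 h ear, and 674, 1109 and 1285 TPM in 0 h ear. The 23 S phase genes summed to 273 and 989 TPM in 12 h lung, 827 and 669 TPM in 0 h lung, 279, 910 and 635 TPM in 12 h ear, and 528, 826 and 1007 TPM in 0 h ear. Within lung at 12 h, library 2 was higher than library 1 for 47 of 48 genes, with a median ratio of 4.53, whereas the lung 0 h libraries differed by a median ratio of 0.96, with library 2 higher for 21 genes. Within ear at 12 h, library 1 was lowest for 47 genes and library 2 highest for 48, and within ear at 0 h, library 1 was lowest for 45 genes and library 3 highest for 43.

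The balance of S phase to mitosis also differed between libraries. The S phase sum divided by the mitosis sum was 1.72 and 1.39 in lung at 12 h, 1.06 and 0.78 in lung at 0 h, 1.35, 0.71 and 0.82 in ear at 12 h, and 0.78, 0.75 and 0.78 in ear at 0 h. Both lung 12 h libraries were above both lung 0 h libraries, and in ear only library 1 at 12 h lay far from the others. These ratios are given as a description without a test.

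Lung at 12 h was set against lung at 0 h to ask whether proliferation RNA differed between the times. The fold changes leaned down, but none passed the test. Of the 48 genes, 47 had a negative log2 fold change and Pcna had one of 0.01. The median was -0.83 on the log2 scale for the 48 genes, -1.09 for mitosis and -0.59 for S phase, and -0.01 for all genes tested. In limma's test across all genes, 0 of 48 genes were called at an adjusted p under 0.05, where 0.00758% of genes tested were called (1 gene, the chemokine gene Ccl12). At an unadjusted p under 0.05 there was 1 of the 48, Tyms, beside 3.99% of all genes. Tyms had a log2 fold change of -1.11 (SE 0.47, unadjusted p = 0.0430, adjusted p = 1).

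The intervals were wide in lung and ran from large decreases to increases. The largest decreases were those of Cdc20, with a log2 fold change of -1.54 (95% interval -3.40 to 0.31), and Prc1, with -1.48 (-3.28 to 0.32). Mki67 had -0.54 (-2.50 to 1.43), Top2a -1.07 (-2.90 to 0.76), Cdk1 -1.23 (-2.94 to 0.49) and Ccnb1 -1.34 (-3.30 to 0.62) as log2 fold change and 95% interval. Aurkb had -0.96 (-2.73 to 0.81) and Foxm1 -1.09 (-2.46 to 0.28). Of the S phase genes, Mcm2 had -0.41 (-1.75 to 0.94), Mcm5 -0.72 (-2.74 to 1.30) and Pcna 0.01 (-1.29 to 1.30). Rrm2 had -0.97 (-2.97 to 1.03), Ccne1 -0.58 (-1.74 to 0.58) and E2f1 -0.11 (-0.70 to 0.47). The interval of every gene named here except Tyms holds 0, and all 48 adjusted p were 1.

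The 2 lung 12 h libraries gave different pictures. Library 1 lay below both lung 0 h libraries for 48 of 48 genes. Library 2 lay above both for 18 of the 23 S phase genes, between them for 2 and below both for 3, whereas among the 25 mitosis genes it lay above for 4, between for 9 and below for 12. It was the highest of the 10 libraries for 10 S phase genes (Mcm2, Mcm3, Mcm5, Mcm6, Cdc6, Cdt1, Pcna, Ccne1, E2f1 and Fen1) and for 0 mitosis genes. Its macrophage marker sum was also the highest of the 10, 17070 TPM, and whether that bears on these levels was not tested. Both 12 h libraries lay below both 0 h libraries for 15 genes (Cdk1, Ccnb1, Ccnb2, Cdc20, Aurka, Plk1, Kif20a, Cenpf, Birc5, Ube2c, Prc1, Mybl2, Tyms, Ccne2 and Prim1), of which 12 are mitosis genes, where 14.3% of genes tested did so. No gene of the 48 lay above in both, where 11.1% of genes tested did. Without lung 12 h library 1 the median of the 48 genes was 0.12, with -0.11 for mitosis and 0.36 for S phase, and without library 2 it was -1.79. The 12 genes named throughout ran from -0.36 for Cdk1 to 0.84 for Pcna without library 1, with 9 of 12 positive. The direction of the median of the 48 genes in lung therefore rests on library 1. The mitosis median of -0.11 without it comes from the 1 lung 12 h library left.

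**Figure D5:**
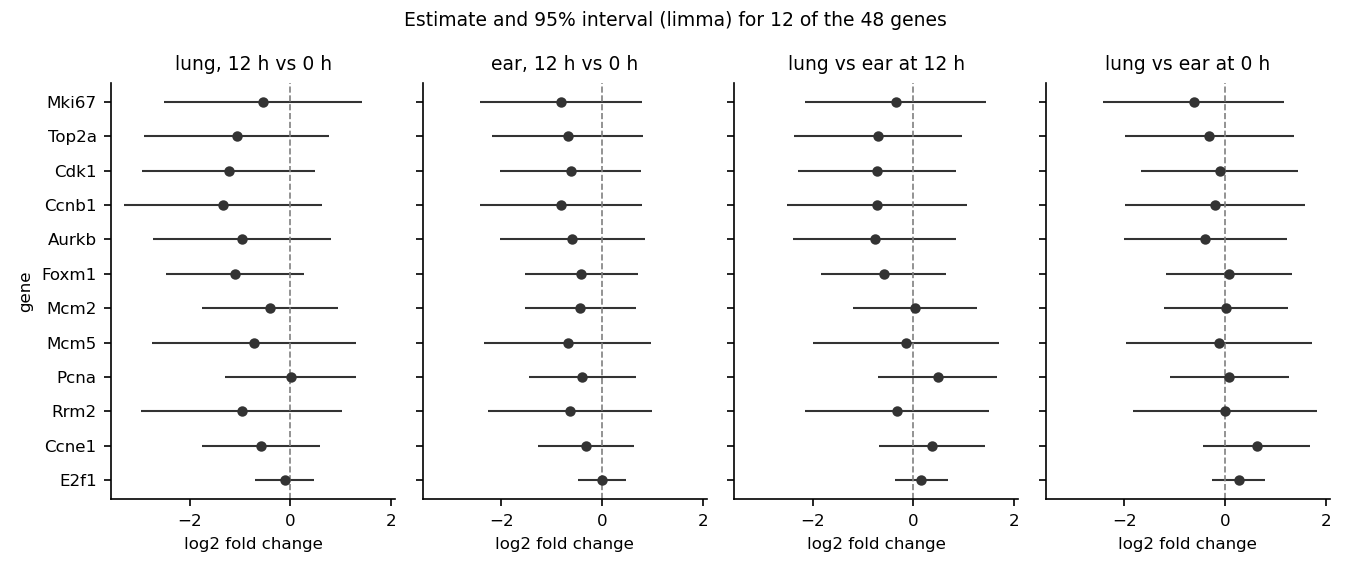
Log2 fold change (horizontal axes) with its 95% interval from limma for 12 of the 48 genes (down the page) in lung at 12 h against 0 h, ear at 12 h against 0 h, lung against ear at 12 h, and lung against ear at 0 h. Every interval shown holds 0, from Ccnb1 in lung (-3.30 to 0.62) to E2f1 in ear (-0.48 to 0.47).

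Ear at 12 h was set against ear at 0 h with the same question. Again 47 of 48 genes had a negative log2 fold change, with Mybl2 at 0.03, and none was called. The median was -0.60 for the 48 genes, -0.68 for mitosis and -0.43 for S phase, and 0.03 for all genes tested. In limma's test 0 of 48 genes were called, where 0.0% of genes tested were called, and at an unadjusted p under 0.05 there were 0 of 48, beside 1.66% of all genes. The values ran from -0.88 for Aurka (95% interval -2.41 to 0.65) to 0.03 for Mybl2 (-0.26 to 0.33).

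For the genes named throughout, every 95% interval in ear held 0. As log2 fold change and interval, Mki67 had -0.81 (-2.41 to 0.80), Top2a -0.68 (-2.17 to 0.82), Cdk1 -0.62 (-2.02 to 0.78) and Ccnb1 -0.81 (-2.41 to 0.79). Aurkb had -0.59 (-2.03 to 0.86) and Foxm1 -0.41 (-1.52 to 0.71). Mcm2 had -0.43 (-1.53 to 0.67), Mcm5 -0.68 (-2.33 to 0.97) and Pcna -0.39 (-1.44 to 0.67). Rrm2 had -0.64 (-2.27 to 1.00), Ccne1 -0.32 (-1.27 to 0.63) and E2f1 0.00 (-0.48 to 0.47). Adjusted p was 1 for each.

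In ear, too, library 1 at 12 h carried most of the downward lean. It lay below all 3 ear 0 h libraries for 46 genes. Library 2 lay above all of them for 25 genes and within their range for 23, and library 3 within it for 30 and below for 18. No gene had groups that did not overlap, where 1.44% of genes tested were lower and 3.93% higher in that way. Without ear 12 h library 1 the median was 0.00, with 20 of 48 genes positive, and without library 2 it was -1.08. The 12 genes named throughout ran from -0.11 for Mki67 to 0.12 for Rrm2 without library 1. That refit used no pairs and kept ear 0 h library 1, which was the lowest of its group for 45 genes. In ear numbers 2 and 3 the mitosis sum without Mybl2 was 1272 and 778 TPM at 12 h, against 1109 and 1285 TPM at 0 h. The S phase sum was 910 and 635 TPM, against 826 and 1007 TPM. Number 2 was thus higher at 12 h and number 3 lower. The sum of 10 skeletal muscle markers was 147, 108 and 490 TPM in 12 h ear, against 19.7, 15.3 and 36.9 TPM in 0 h ear, with library 3 highest. The sum of 8 endothelial markers was 19.4, 12.4 and 27.8 TPM in 12 h ear, against 7.90, 6.99 and 6.71 TPM in 0 h ear. Both sums were higher at 12 h without overlap, and their part in the values of the 48 genes was not tested.

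The difference between the tissues in the change over time, the interaction, was not called for any of the 48 genes. The median of the lung change minus the ear change was -0.27, against -0.03 for all genes, and 6 genes were positive. Limma called 0 of 48 genes, where 0.0% of genes were called, and 0 of 48 had an unadjusted p under 0.05, beside 2.93% of all genes. The values ran from -0.80 for Prc1 (95% interval -3.13 to 1.52) to 0.39 for Pcna (-1.28 to 2.07). Mki67 had 0.27 (-2.27 to 2.80), Top2a -0.39 (-2.75 to 1.97), Cdk1 -0.61 (-2.82 to 1.60) and Ccnb1 -0.53 (-3.06 to 2.00). Aurkb had -0.38 (-2.66 to 1.91), Foxm1 -0.68 (-2.45 to 1.08) and Mcm2 0.02 (-1.71 to 1.76). Mcm5 had -0.03 (-2.64 to 2.57), Rrm2 -0.33 (-2.91 to 2.25), Ccne1 -0.27 (-1.76 to 1.23) and E2f1 -0.11 (-0.86 to 0.64). The median was 0.69 without lung 12 h library 1, -1.18 without lung 12 h library 2 and 0.10 without library 1 of both tissues at 12 h, where the 12 genes ran from -0.41 for Cdk1 to 0.88 for Mki67.

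Lung was set against ear at 12 h and at 0 h to ask whether the tissues differed in proliferation RNA. At 12 h the median difference, lung minus ear, was -0.41 for the 48 genes, against -0.14 for all genes tested, with -0.70 for mitosis and -0.21 for S phase. Limma called 0 of 48 genes, where 17.2% of genes tested were called. All 25 mitosis genes and 16 of 23 S phase genes had a negative estimate. The lowest was that of Cdc20, -1.18 (95% interval -2.88 to 0.51), and the highest that of Pcna, 0.48 (-0.70 to 1.66). Mybl2 was the 1 gene with an unadjusted p under 0.05, where 31.4% of all genes had one. Its log2 difference was -0.37 (SE 0.14, unadjusted p = 0.0310, adjusted p = 0.115), and it was also the 1 gene whose lung libraries all lay below the ear libraries at 12 h, where 30.2% of genes tested did. Most of its TPM belongs to the incomplete transcript. The full-length transcript alone had -0.22 (SE 0.59, adjusted p = 0.8345).

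The genes named throughout had these differences between lung and ear at 12 h, as log2 difference and 95% interval. Mki67 had -0.35 (-2.14 to 1.44), Top2a -0.70 (-2.37 to 0.97), Cdk1 -0.72 (-2.28 to 0.85) and Ccnb1 -0.72 (-2.51 to 1.06). Aurkb had -0.77 (-2.39 to 0.84), Foxm1 -0.59 (-1.84 to 0.66) and Mcm2 0.04 (-1.19 to 1.26). Mcm5 had -0.15 (-1.99 to 1.70), Rrm2 -0.33 (-2.16 to 1.49), Ccne1 0.37 (-0.69 to 1.43) and E2f1 0.16 (-0.37 to 0.69). Without lung 12 h library 1 the median was 0.47, without lung 12 h library 2 it was -1.50, and without library 1 of both tissues it was -0.16, with the 12 genes between -0.54 for Ccnb1 and 0.92 for Pcna.

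At 0 h the libraries of a group lay closer together than at 12 h. The median difference was -0.17, against -0.08 for all genes tested, with -0.33 for mitosis and 0.00 for S phase, and 15 genes had a positive estimate, 11 of them of S phase. Limma called 0 of 48 genes, where 11.3% of genes tested were called, and 0 of 48 had an unadjusted p under 0.05, beside 24.9% of all genes. Both lung 0 h libraries lay above all ear 0 h libraries for Ccne1 and E2f1, where 18.0% of genes tested did so. They lay below all of them for 8 genes (Mki67, Ccnb2, Bub1b, Kif11, Kif20a, Cenpf, Pola1 and Lig1), where 25.6% of genes tested did so. These shares of the 48 genes are below the background.

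The estimates at 0 h ran from -0.71 for Ccnb2 (95% interval -2.42 to 1.00) to 0.63 for Ccne1 (-0.43 to 1.69). Mki67 had -0.62 (-2.41 to 1.17), Top2a -0.31 (-1.98 to 1.36), Cdk1 -0.11 (-1.67 to 1.46) and Ccnb1 -0.19 (-1.98 to 1.59). Aurkb had -0.39 (-2.01 to 1.22), Foxm1 0.09 (-1.16 to 1.34) and Mcm2 0.01 (-1.21 to 1.24). Mcm5 had -0.11 (-1.96 to 1.73), Pcna 0.09 (-1.10 to 1.27), Rrm2 0.00 (-1.83 to 1.82) and E2f1 0.27 (-0.26 to 0.80). For 10 of these 12 genes, all but Ccne1 and E2f1, the interval holds changes of more than 2-fold in either direction. These intervals use the spread shared by all 4 groups, which takes in the wider 12 h groups, and not that of the 0 h libraries alone.

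Other genes of the cell cycle, from lists written by name, behaved like the 48 where they belong to the same phases. Of 50 other mitosis genes, among them condensin, kinetochore and spindle genes, 0 were called in lung at 12 h against 0 h, with a median of -0.99, and 0 in ear, with a median of -0.57. Their sum was 680 and 1427 TPM in 12 h lung, against 2064 and 1975 TPM in 0 h lung, and 768, 2870 and 1981 TPM in 12 h ear, against 1432, 2597 and 3094 TPM in 0 h ear. Library 1 at 12 h was again the lowest of each tissue. Of 44 other S phase genes, 0 were called in either tissue, with medians of -0.50 in lung and -0.26 in ear. At an unadjusted p under 0.05 there were 3 of the 50 other mitosis genes in lung and 0 in ear, and 0 of the 44 other S phase genes in either. Of all genes tested, 3.99% in lung and 1.66% in ear had such a p. Without library 1 at 12 h of the tissue compared, the medians were -0.24 in lung and 0.04 in ear for the other mitosis genes, and 0.16 in lung and -0.01 in ear for the other S phase genes.

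The genes that decide on entry into the cycle had small median changes over time. Of 11 G1 and entry genes, 0 were called over time in either tissue, with medians of -0.21 in lung and -0.02 in ear. At an unadjusted p under 0.05 there were 1 gene in lung and 0 in ear, beside 3.99% and 1.66% of all genes. Ccnd1, cyclin D1, had 114 and 271 TPM in 12 h lung, 159 and 221 TPM in 0 h lung, 102, 256 and 190 TPM in 12 h ear, and 247, 226 and 290 TPM in 0 h ear, so that it too was lowest in library 1 at 12 h of each tissue. Its log2 fold change was -0.09 (95% interval -1.14 to 0.96) in lung and -0.56 (-1.42 to 0.30) in ear, and 0.53 in lung and -0.20 in ear without library 1 at 12 h of that tissue. Ccnd2 had -0.15 (-0.75 to 0.45) in lung and -0.24 (-0.73 to 0.25) in ear, and Rb1, the retinoblastoma gene that holds E2F in check, had 0.32 (-0.37 to 1.00) in lung and -0.02 (-0.58 to 0.54) in ear. Cdk4, the kinase partner of D cyclins, had -0.57 (-1.06 to -0.07, adjusted p = 1) in lung and 0.03 (-0.37 to 0.44) in ear.

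Between the tissues, Cdk6, the other kinase partner of D cyclins, was the gene of the entry list that was called. It had 128 and 118 TPM in 12 h lung, against 36.6, 53.5 and 50.5 TPM in 12 h ear, and 149 and 141 TPM in 0 h lung, against 34.3, 57.0 and 46.6 TPM in 0 h ear. The groups did not overlap at either time. It was higher in lung by 1.39 on the log2 scale at 12 h (SE 0.24, limma adjusted p = 0.00408) and by 1.67 at 0 h (SE 0.24, adjusted p = 0.00221). Cdk4 had 260 and 292 TPM in 12 h lung, against 368, 430 and 483 TPM in 12 h ear, a log2 difference of -0.62 (SE 0.20, adjusted p = 0.0642). At 0 h its difference was -0.02 (-0.48 to 0.43). Of the 11 genes of the DREAM and MuvB complexes, which bind the CHR and E2F elements, 0 were called in any of the 4 comparisons of groups, with 0 at an unadjusted p under 0.05 over time in either tissue and 2 at 12 h and 2 at 0 h between the tissues. Between the tissues 17.2% of all genes tested were called at 12 h and 11.3% at 0 h, and 31.4% and 24.9% had an unadjusted p under 0.05. Over time 3.99% of all genes in lung and 1.66% in ear had an unadjusted p under 0.05. Beside these shares, such counts in a list of 11 genes do not set it apart from all genes.

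Inhibitors of cyclin-dependent kinases, which stop the cycle, differed between the tissues at 12 h in 3 of 7 genes, where 17.2% of all genes tested were called. Cdkn1a, the p21 gene, had 203 and 153 TPM in 12 h lung, against 85.7, 130 and 89.6 TPM in 12 h ear, and was higher in lung by 0.81 on the log2 scale (SE 0.23, adjusted p = 0.0419). Cdkn1b, the p27 gene, had 45.9 and 25.8 TPM in lung, against 110, 65.6 and 80.4 TPM in ear, and was lower in lung, with a log2 difference of -1.25 (SE 0.29, adjusted p = 0.0164). Cdkn1c, the p57 gene, had 0.60 and 1.59 TPM in lung, against 37.3, 7.80 and 10.7 TPM in ear, and was lower in lung, with -2.96 (SE 0.65, adjusted p = 0.0143). All 3 genes had groups that did not overlap at 12 h, where 17.0% of genes tested were higher in lung and 30.2% lower in that way. Ear 12 h library 1 held the highest ear values of Cdkn1b and Cdkn1c and the lowest of Cdkn1a.

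Those 3 calls differed in how far they depend on single libraries. The calls of Cdkn1b and Cdkn1c each held in 18 of 20 alternatives. That of Cdkn1a held in 7 of 20 alternatives, with adjusted p between 0.0187 and 0.316 over all of them. It ended without lung 12 h library 1 (adjusted p = 0.183), without lung 12 h library 2 (0.0595), without ear 12 h library 1 (0.118) and without ear 12 h library 3 (0.1195), and also without either lung 0 h library or ear 0 h library 2 or 3, which enter through the shared spread (between 0.05145 and 0.0635). The call of Cdkn1b ended without lung 12 h library 2, where its log2 difference was -0.85. That of Cdkn1c ended without lung 12 h library 1, where its log2 difference was -2.61. Each of these refits leaves 1 library in lung at 12 h, and the direction was kept in both. At 0 h the differences were 0.68 for Cdkn1a (adjusted p = 0.102), -0.60 for Cdkn1b (0.235) and -2.33 for Cdkn1c (0.0515). Cdkn2a, the gene of p16 and ARF, had log2 differences of 0.99 (95% interval -0.07 to 2.04, adjusted p = 0.187) at 12 h and 1.32 (0.26 to 2.38, adjusted p = 0.112) at 0 h. Over time 0 of 7 inhibitors were called in either tissue. At an unadjusted p under 0.05 there were 1 in lung and 0 in ear, beside 3.99% and 1.66% of all genes. Cdkn1a had 0.10 (-0.47 to 0.68) in lung and -0.03 (-0.50 to 0.44) in ear.

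Outside the cell cycle lists, the genes whose levels followed the mean log2(TPM + 1) of the 48 most closely over the 10 libraries were Cdca5 (Pearson r = 0.992), Fbxo5 (0.992), Nsl1 (0.992), Poc1a (0.989), Kif18b (0.987) and Iqgap3 (0.986), of 9749 genes compared. Cdca5, which encodes sororin, had 2.02 and 11.4 TPM in 12 h lung, 9.36 and 9.04 TPM in 0 h lung, 2.00, 12.6 and 7.64 TPM in 12 h ear, and 6.89, 12.0 and 13.4 TPM in 0 h ear. The lists were written by name and do not hold every gene of the cell cycle, so a gene outside them can still belong to it. These correlations describe libraries of 4 groups in which library 1 at 12 h is lowest in both tissues, and they share the TPM scale.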

How the data were processed

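RNA of 10 libraries of mouse cells labelled post-mortem fibroblasts was sequenced, and the authors deposited one table of TPM values per transcript and library. Per the submitters' processing notes the values came from kallisto 0.44.1 and the genome build was GRCm38, while the sources used here give no transcript set, trimming or strand setting. TPM holds no read counts, so the depth of a library is unknown and neither counting intervals nor floors were computed. A TPM value is relative, so a gain of one abundant transcript lowers all others.

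From the deposited TPM values, sums per gene were formed over the transcripts matched to GENCODE vM21. Of 61440 transcripts, 937 had no match and were left out, which took 0.508% to 0.590% off each library. Sums were analysed as log2(TPM + 1), a scale on which changes of low genes appear smaller than they are. Group means were estimated in a linear model (limma 3.58.1, R 4.3.3, eBayes with a mean-dependent prior, 6 residual and 3.23 prior degrees of freedom) over 13188 genes, with two-sided tests and Benjamini-Hochberg adjustment over all of them, called at an adjusted p under 0.05. Intervals are 95% intervals of that fit. All 4 groups share one estimate of the spread. The script was tested on simulated data. Promoter and motif matching used Python 3.11.15 and RefSeq windows of build GRCm38.p6.

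Replicate numbers come from the labels, which do not say what they mark. Checked over all genes tested, same-numbered ear libraries at 12 h and 0 h deviated from their group means together. Their r was 0.453, 0.320 and 0.377 for numbers 1, 2 and 3. By a rule that asks for more than 0.1 in every pair they were taken as pairs in ear. Of the differently numbered ear pairs, only 12 h library 2 with 0 h library 3 had a positive r, 0.266. In lung r was -0.443. The main fit uses no pairs, and the number entered as a block only in an alternative fit. That fit also blocked lung by number, and lung with ear at each time. Between same-numbered lung and ear libraries r was 0.260 and 0.256 at 12 h, and -0.194 and -0.0393 at 0 h.

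The 48 genes and the lists of other cell cycle genes and cell markers were chosen with earlier results of these data known. In each comparison, values are given for 12 set genes of the 48 (Mki67, Top2a, Cdk1, Ccnb1, Aurkb, Foxm1, Mcm2, Mcm5, Pcna, Rrm2, Ccne1 and E2f1) and for any gene past the threshold, and the others are given by counts and ranges or named for being lowest or highest. From the other lists, called genes (at most 4 per list) and Ccnd1, Ccnd2, Cdk4, Rb1, Cdkn1a and Cdkn2a are named. Genes of closest pattern are the 6 outside these lists, with a mean of at least 5 TPM, of highest Pearson correlation. Tyms, Mybl2 and Ccl12, and the look at their transcripts, were picked after values were seen. The alternatives tried were a pseudocount of 0.1, no filter, a mean of at least 5 TPM, quantile and upper-quartile scaling, array weights, the replicate block, only the 2 groups compared, and leaving out each library.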

Additional observations from a re-analysis of the deposited data

How the results depend on the processing

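None of the 48 genes was called in any of the 5 comparisons under any alternative run, and Cdk6 stayed called between lung and ear in each of 20 alternatives at both times. Among the 60 values of the 12 genes named throughout, the sign differed from the one reported in 74 of 600 refits that left out one library and in 33 of 624 other refits. Leaving out each library in turn, the median of the 48 genes ranged from -1.08 to -0.0045 in ear over time, from -1.79 to 0.12 in lung over time, from -1.18 to 0.69 for the interaction, from -1.50 to 0.47 for lung against ear at 12 h and from -0.41 to -0.026 at 0 h. The number of all genes called ranged from 0 to 152 in lung over time, 0 to 27 for the interaction, 1369 to 2470 for lung against ear at 12 h and 549 to 1766 at 0 h, counting also libraries outside the comparison, which share the spread. A lone library left in a group is assumed to vary like the other groups. Without library 1 of both tissues at 12 h, an alternative added after seeing the data, the medians were -0.0045 in ear, 0.12 in lung, 0.10 for the interaction and -0.16 for lung against ear at 12 h, and 65 genes were called in lung over time and 4 for the interaction. In lung over time, 0 genes were called with a pseudocount of 0.1, with a mean of at least 5 TPM, with only the 2 groups compared, with the replicate block and with the lung numbers crossed in the block (added after seeing the data), and 7 with no filter. For the interaction, 2 genes were called with no filter, 1 with quantile scaling and 1 with upper-quartile scaling. For lung against ear at 12 h, 1478 genes were called with a mean of at least 5 TPM, 1475 with array weights (median -0.66) and 1164 with the replicate block. At 0 h, 955 were called with a mean of at least 5 TPM, 2368 with array weights (median -0.33) and 745 with the replicate block (median -0.026, where ear library 3 has no lung partner), and the median was -0.11 with upper-quartile scaling. The causes were not tested, except that a stricter filter tests fewer genes and the block and the subsets leave fewer degrees of freedom. The block called 0 of the 48 genes in each comparison and ended the call of Cdkn1a at 12 h (adjusted p = 0.229). That call also ended with no filter (0.0581), array weights (0.0877) and only the 2 groups compared (0.0995), and that of Cdkn1b with only the 2 groups compared (0.0613). Without library 1 of both tissues at 12 h the calls of Cdkn1a (0.316) and Cdkn1c (0.0932) ended. Cdkn1c at 0 h was called in 9 of 20 alternatives, with adjusted p between 0.0182 and 0.222 over all of them. With the full-length Mybl2 and the E2f1 transcript of longer coding sequence in place of the sums, also added after seeing the data, 0 of the 48 genes were called.

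The limits are those of 2 or 3 libraries in a group whose separate origin is unstated, and of unknown depth. In fits without pairs, the median decrease of the 48 genes over time rests on library 1 at 12 h of each tissue. In ear the refit without it kept its same-numbered partner, 0 h library 1, the lowest 0 h ear library for 45 genes. A refit without both was not run. In lung the mitosis medians without library 1 were -0.11 for the mitosis genes of the 48 and -0.24 for the other mitosis genes. These medians rest on 1 lung library at 12 h. They are small beside the median SEs with both libraries, 0.79 and 0.70, and so do not show a remaining decrease. The spread within groups is a single estimate over all 4 groups, 0.93 on the log2 scale for the median of the 48 genes. Differences of the size estimated here could not be told from that shared spread. It takes in the wider 12 h groups: the median ratio of highest to lowest ear library was 5.23 at 12 h and 1.80 at 0 h.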
